A study of Mus musculus with 40 samples.

Results

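The genes Uhrf1, Uhrf2, Dnmt1, Cul2, Rbx1 and Usp7, which maintain DNA methylation, or belong to the ubiquitin machinery acting on the Uhrf1 protein, were followed by gene symbol through 3 RNA-seq count tables of mouse embryonic stem cells. All 6 members were present in each table, among 55276 rows in the genotype table, 55291 in the Pramel7 table and 55276 in the time course table, and all 6 passed the filter on low counts in each. The rule used gene symbols and no measured value.

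After DNA replication, CpG sites carry a methyl group on the old strand only. Uhrf1 binds such sites and ubiquitinates histone H3, which recruits Dnmt1, the enzyme that copies the mark to the new strand. Uhrf2 is a paralog of Uhrf1 that does not replace it in maintenance. The amount of Uhrf1 protein is set partly by ubiquitination: Pramel7 is a substrate receptor that brings Uhrf1 to a ligase built on the scaffold Cul2 and the RING protein Rbx1, and Usp7 is a deubiquitinase that stabilises Uhrf1 and Dnmt1. These tables hold RNA, so protein turnover itself is outside what they measure.

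The series asks how loss of the corepressor CtBP, encoded by Ctbp1 and Ctbp2, changes the 2-cell-like program in embryonic stem cells of the E14tg2a line, which grow in serum with LIF, and how far Dux, Dppa2 and Pramel7 take part. For the genotypes there are 2 libraries per group: WT, a Ctbp double knockout (CtbpDKO), DuxKO, Ctbp_DuxTKO (Ctbp and Dux both lost), Dppa2KO and DKO_Dppa2_KO (Ctbp and Dppa2 both lost). The Pramel7 table has 4 WT libraries, numbered 3 to 6. Beside them are pairs of libraries of DuxKO, of cells overexpressing Pramel7 with Dux (P7OE) or without it (DuxKO_P7OE), and of cells lacking Pramel7 (P7KO). For the time course, 2 libraries per day (0, 3, 9, 12 and 18) came from cells labelled CtbpDKO, with the column prefix iCt2 and the word Dox in their titles, and with no agent, dose or treated days given. The labels do not say whether a genotype is 1 clone or several, or whether libraries came from separate cultures, so the p-values below measure the spread between these libraries only. The 6 bisulfite libraries that the labels also describe were not analysed here.

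Depth was 19944644 to 36025046 counts a library for the genotypes, 10123058 to 30135341 for the Pramel7 series and 16674526 to 30169626 for the days. Ctbp1 was counted 1911 and 2109 times in WT and at most 4 times in any library lacking Ctbp, and Pramel7 was counted 435 and 431 times in P7OE, 537 and 588 times in DuxKO_P7OE and 67 and 79 times in CtbpDKO. Ctbp2 RNA was lower but present without Ctbp, at 1429 and 1568 counts in CtbpDKO, 922 and 1187 in Ctbp_DuxTKO and 729 and 872 in DKO_Dppa2_KO, against 6293 and 6591 in WT. Pramel7 was already at 2 to 4 counts in the WT libraries of its table, against 0 and 3 in P7KO, so its RNA cannot check the P7KO label. Duxf3, the symbol of Dux, held 1 and 0 counts in WT of the genotype table and 0 to 2 in WT of the Pramel7 table. It held 0 in each DuxKO library, so its RNA cannot check the DuxKO label either. CtbpDKO held 40 and 24 counts of Duxf3, and Ctbp_DuxTKO held 0 and 0. Dppa2 RNA was lower but present in Dppa2KO (1208 and 1027 counts against 1707 and 1868 in WT). DKO_Dppa2_KO is named from the description and column of those libraries, since their title names Dppa2 and Dux instead. Ctbp2 in the time course was counted 1184 and 1328 times at day 0, 11119 and 11231 times at day 3, 8466 and 6774 times at day 9, 866 and 1268 times at day 12 and 926 and 1646 times at day 18.

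All 8 embryonic stem cell markers on the list used (Pou5f1, Nanog and others) were present, with a summed level of 1869 to 3810 CPM (counts scaled to library size) in every library. The 7 markers of 2-cell-like cells summed to 29.5 to 36.2 CPM in CtbpDKO and to at most 0.939 CPM in WT of the same table. Their sum in the Pramel7 table was 11.4 to 14.3 CPM in P7OE, 0 in DuxKO_P7OE and 0.500 to 1.40 CPM in WT. Over the days it was 33.1 to 41.7 CPM at day 0 and 27.7 to 39.2 CPM at day 3. At days 9 and 12 it was 6.89 to 8.23 and 5.82 to 8.78 CPM, and at day 18 25.4 to 28.2 CPM. The 5 primitive endoderm markers summed to 129 to 132 CPM in Ctbp_DuxTKO and 27.0 to 31.2 CPM in WT. In the Pramel7 table they summed to 74.2 to 77.4 CPM in P7OE and 67.7 to 72.4 CPM in DuxKO_P7OE, against 6.16 to 8.80 CPM in WT. Over the days they summed to 16.1 to 19.9 CPM at day 0 and 14.7 to 16.6 CPM at day 3. They were at 17.5 to 17.9 CPM at day 9, 26.1 to 27.8 CPM at day 12 and 61.1 to 67.4 CPM at day 18. Whether these cells take part in any difference of the members was not tested, and in bulk RNA fewer cells of a type and less RNA per cell cannot be told apart.

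The 4 WT libraries of the Pramel7 table differed, and are also used below as pairs, WT 3 and 4 and WT 5 and 6. In the sample order of the series, WT 3 and 4 stand with DuxKO, P7OE and DuxKO_P7OE, and WT 5 and 6 with P7KO. No label gives a batch. The pairs did not overlap for Usp7, Dnmt1 and Uhrf2. The share of all genes parting so was not computed, and 4 libraries can part so by chance. Over genes with at least 20 counts, WT 5 and 6 were no closer to each other than WT 4 and 5. The chi-square per degree of freedom was 85.6 for WT 5 and 6 and 81.0 for WT 4 and 5. For WT 3 and 4 it was 34.4. Usp7 stood at 207 and 208 CPM in WT 3 and 4 and at 310 and 320 CPM in WT 5 and 6, Dnmt1 at 244 and 245 CPM against 363 and 297 CPM, and Uhrf2 at 21.8 and 21.3 CPM against 19.9 and 15.5 CPM. Uhrf1, Cul2 and Rbx1 overlapped between the pairs. Calls that change when either pair is used alone are given below.

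Uhrf1 and Dnmt1 are transcribed most in dividing cells, and E2F factors are known regulators of genes of DNA replication. The sequences around the E2F core motif in the members' promoters are shown because genes of S phase are compared with the members below. A RefSeq table of promoters (GRCm38.p6, 250 bases before to 50 bases from each annotated start on) held 8 promoters for 5 of the 6 members. The E2F core was searched in 4 spellings, which are TTCCCGC, then TTCGCGC, then TTGCCGC and lastly TTGGCGC, on both strands, and it can overlap the CCAAT box searched beside it. In the 30-base windows below the core is in capitals, all letters are on the strand of the gene, and starts are numbered from the 5′-most.
Uhrf1 start 1: tgctttctcgcTTCCCGCcacagcgccagc
Uhrf1 start 2: ccgagtcgggtTTCGCGCgcccaggcgtct
Uhrf2 start 1: cgagatccgggTTGGCGCcgtgacctccat
Dnmt1 start 3, distal: ggtttccgcgcGCGCGAAaaagccggggtc
Dnmt1 start 3, middle: gcaagatgccaGCGCGAAcagctccagccc
Dnmt1 start 3, proximal: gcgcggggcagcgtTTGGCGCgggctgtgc
The Uhrf1 windows lie on the plus strand at chr17:56303278-56303307 and chr17:56304118-56304147, with the first base of the core at -48 and -184 from their starts. The Uhrf2 window lies on the plus strand at chr19:30030445-30030474, with the core at -57. The Dnmt1 windows lie on the minus strand at chr9:20952824-20952853, chr9:20952763-20952792 and chr9:20952574-20952603, with matches at -219, -158 and 34, the first 2 on the opposite strand.

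Rbx1 held 2 cores on the opposite strand, at -119 and -55, and Usp7 held none. Starts 1 and 2 of Dnmt1 held none either, so 5 of the 8 promoters had a match, while 9.57% of all 32851 promoters of this length do. A CCAAT box was found in 6 of the 8 and in 37.4% of all. The members' promoters carried 2 to 63 CG pairs, against a median of 7 over all promoters. A match describes these letters only.

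**Figure D1:**
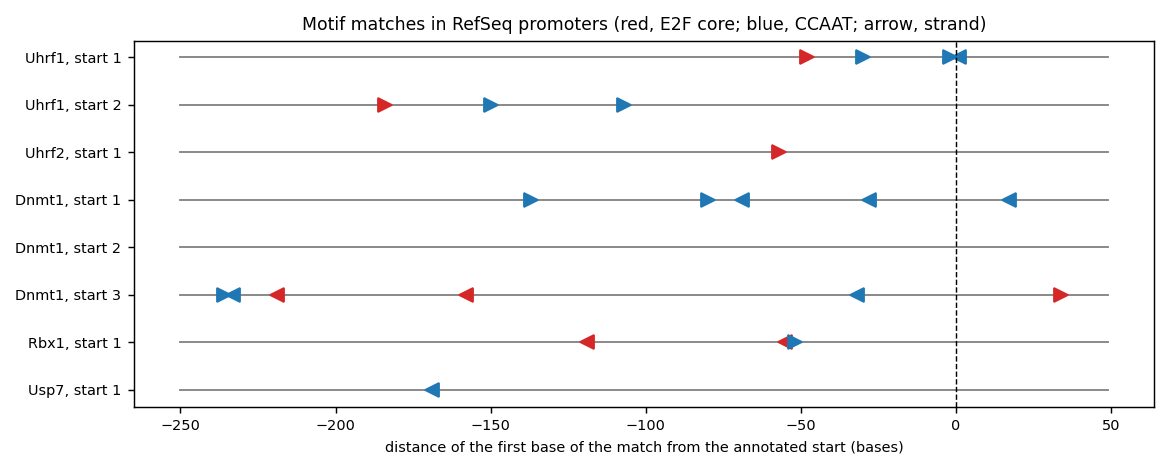
Positions of E2F core (red) and CCAAT (blue) matches along the 8 RefSeq promoters of 5 members, in bases from the annotated start (dashed line at 0); arrows point along the strand of the match. Both Uhrf1 starts, Uhrf2, Dnmt1 start 3 and Rbx1 have an E2F core.

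In the genotype table, CtbpDKO cells had more Uhrf1 and less Rbx1 RNA than WT, so 2 of 6 members were called, while 26.1% of all 21193 genes tested were. A gene is called when its adjusted p in edgeR's quasi-likelihood test, over all genes of the table, is under 0.05. DuxKO differed from WT in 1 member, Uhrf2, at a background of 17.5% of genes called. In Dppa2KO against WT 0 members were called by edgeR, at a background of 16.4%, with 0 at an unadjusted p under 0.05 and 0 by DESeq2. The same holds for Ctbp_DuxTKO against CtbpDKO, with 0 members by each of these counts and a background of 8.15%.

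**Figure D2:**
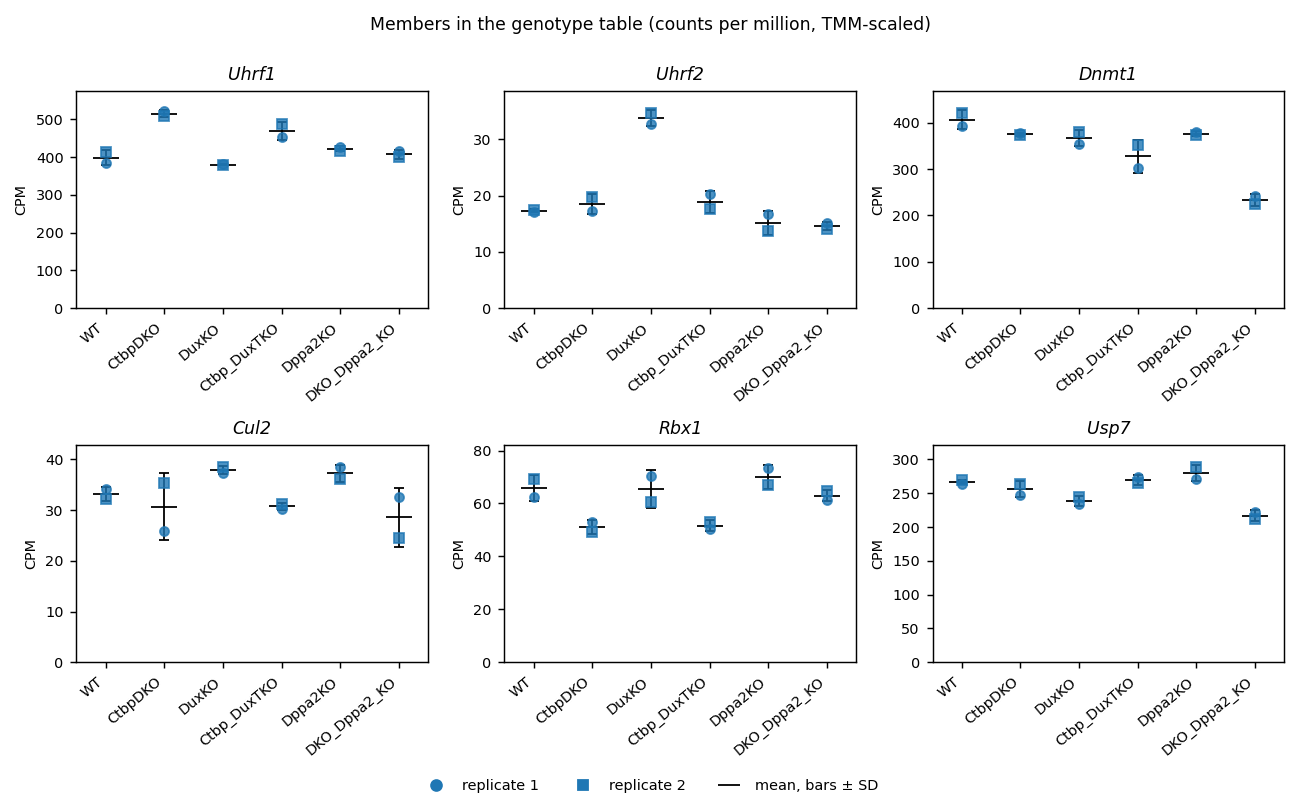
CPM of the 6 members in each library of the genotype table (points, by replicate number), with the group mean and SD (n = 2 each); each axis starts at 0. Uhrf2 is high in DuxKO alone, at 32.8 and 34.7 CPM, and Dnmt1 is lowest in DKO_Dppa2_KO, at 243 and 224 CPM.

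Uhrf1, the reader of hemimethylated sites, was at 384 and 413 CPM in WT and at 521 and 509 CPM in CtbpDKO. The groups did not overlap, and the log2 fold change was 0.37 (SE 0.08, adjusted p = 0.00423). Without WT replicate 1 it was 0.32 with an adjusted p of 0.0588. The 6 fibroblast feeder markers summed to 11.29 to 11.6 CPM in CtbpDKO and 1.745 to 2.184 CPM in WT, and the 4 trophoblast markers to 24.83 to 24.95 and 16.94 to 17.51 CPM. Their part in the Uhrf1 level was not tested.

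Loss of Ctbp in cells without Dux went the same way. DuxKO held 381 and 379 CPM of Uhrf1 and Ctbp_DuxTKO 453 and 487 CPM, a log2 fold change of 0.31 (SE 0.08, adjusted p = 0.00893). Those 4 libraries are not among the 4 that compare CtbpDKO with WT. The call was lost without DuxKO replicate 1 (0.30, adjusted p = 0.0556), without DuxKO replicate 2 (0.28, adjusted p = 0.0665), without Ctbp_DuxTKO replicate 2 (0.22, adjusted p = 0.0944) and with unscaled library totals (0.34, adjusted p = 0.0629). In the whole comparison 3 members were called, Uhrf1, Uhrf2 and Rbx1, at a background of 41% of genes.

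In cells without Dppa2 the same loss gave no called difference, with Uhrf1 at 428 and 417 CPM in Dppa2KO and 416 and 400 CPM in DKO_Dppa2_KO (log2 fold change -0.05, SE 0.08, adjusted p = 0.687). Against CtbpDKO, DKO_Dppa2_KO was lower by -0.34 (SE 0.08, adjusted p = 0.0144), and the groups did not overlap. That call was lost without CtbpDKO replicate 1 (-0.30, adjusted p = 0.0935), CtbpDKO replicate 2 (-0.35, adjusted p = 0.0575) or DKO_Dppa2_KO replicate 2 (-0.31, adjusted p = 0.103). The difference between the Ctbp effects with and without Dppa2 was -0.42 (SE 0.12, adjusted p = 0.0402), and leaving out any 1 of its 8 libraries ended this call, with adjusted p from 0.0686 to 0.144. The order of the group means was CtbpDKO, Ctbp_DuxTKO, Dppa2KO, DKO_Dppa2_KO, WT and DuxKO, and the libraries of DKO_Dppa2_KO and WT overlapped.

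Uhrf2, the paralog, showed the largest rise of any member in the table. It stood at 17.1 and 17.5 CPM in WT and at 32.8 and 34.7 CPM in DuxKO, with raw counts of 303 to 1045 over all libraries of the table. DuxKO was higher by 0.96 (SE 0.13, adjusted p = 0.000184) on the log2 scale. Every alternative kept the call, with log2 fold changes of 0.92 to 1.01 and adjusted p of at most 0.00356. The 5 primitive endoderm markers summed to 7.181 to 7.788 CPM in DuxKO and 27.03 to 31.17 CPM in WT. In the Pramel7 table, where Uhrf2 also rose, they summed to 7.397 to 9.005 CPM in DuxKO and 6.157 to 8.798 CPM in WT. Their part in the Uhrf2 level was not tested.

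Neither group without Ctbp showed that level. CtbpDKO held 17.3 and 19.8 CPM of Uhrf2 and Ctbp_DuxTKO held 20.3 and 17.6 CPM, so these overlapped, while Ctbp_DuxTKO lay below DuxKO by -0.83 (SE 0.13, adjusted p = 0.000154). The interaction of Ctbp loss and Dux loss was -0.93 (SE 0.18, adjusted p = 0.00291), and it was called in all 14 alternatives, at -1.05 to -0.84. Uhrf2 was the 1 member called for this interaction, at a background of 19.5% of genes. Dppa2KO held 16.7 and 13.7 CPM and DKO_Dppa2_KO 15.2 and 14.1 CPM.

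Uhrf2 lies at chr19:30030430-30093726 in GRCm38.p6. Of the 10 nearest genes with a mean of at least 2 on the log2 CPM scale, 5 on each side, 0 were called higher in DuxKO while 4 were called lower (median -0.06). In the comparison of Ctbp_DuxTKO with DuxKO, 4 of the 10 were higher and 4 lower.

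Dnmt1, the maintenance methyltransferase, was at 393 and 421 CPM in WT, 378 and 373 CPM in CtbpDKO, 380 and 373 CPM in Dppa2KO and 243 and 224 CPM in DKO_Dppa2_KO. The last group lay below all others. Against CtbpDKO the log2 fold change was -0.68 (SE 0.09, adjusted p = 0.000461), and against Dppa2KO it was -0.69 (SE 0.09, adjusted p = 0.000105). Both calls held under all 10 alternatives of each, at -0.83 to -0.63 and at -0.78 to -0.64.

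With either loss alone, Dnmt1 differed from WT by -0.12 (SE 0.09, adjusted p = 0.408) in CtbpDKO and by -0.11 (SE 0.09, adjusted p = 0.457) in Dppa2KO. The interaction of Ctbp loss and Dppa2 loss was -0.57 (SE 0.13, adjusted p = 0.0190). That call was lost without WT replicate 1 (-0.53, adjusted p = 0.0774), CtbpDKO replicate 1 (-0.55, adjusted p = 0.0591) or DKO_Dppa2_KO replicate 2 (-0.52, adjusted p = 0.0712), and with unscaled totals (-0.69, adjusted p = 0.0634). Dnmt1 and Uhrf1 were the 2 members called for it, at a background of 8.23%. In DKO_Dppa2_KO against CtbpDKO 2 members were called, at a background of 15.4%, and against Dppa2KO 2, at 30.4%.

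Dux loss left Dnmt1 at 355 and 380 CPM in DuxKO (log2 fold change against WT -0.15, SE 0.09, adjusted p = 0.313) and 303 and 352 CPM in Ctbp_DuxTKO (against DuxKO -0.17, SE 0.09, adjusted p = 0.174). Without Ctbp_DuxTKO replicate 2 the latter was -0.31 with an adjusted p of 0.0373. Dnmt1 lies at chr9:20907206-20959888. Of its 10 nearest genes, 1 was higher and 1 lower in DKO_Dppa2_KO against CtbpDKO, and their median was 0.13. Against Dppa2KO, 6 of the 10 were higher and 1 lower, with a median of 0.26. The one annotated gene overlapping Dnmt1, Mir7081, held at most 20 counts in a library.

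Some genes of DNA replication were called lower in the comparisons where Dnmt1 was, and also in a comparison where it was not. Of 16 E2F and S-phase genes, 0 were called higher and 6 lower in DKO_Dppa2_KO against CtbpDKO, at a background of 15.4%. Their median was -0.18 against -0.03 over all genes tested. Among those called were Mki67 (-0.73, SE 0.17, adjusted p = 0.0112), Top2a (-0.73, SE 0.10, adjusted p = 0.000465) and Rrm2, a subunit of ribonucleotide reductase (-0.58, SE 0.08, adjusted p = 0.000564). Against Dppa2KO, at a background of 30.4%, 2 rose and 9 fell, with a median of -0.45 against 0.01 over all genes. In Ctbp_DuxTKO against DuxKO, at a background of 41%, 1 rose and 9 fell, with a median of -0.28 against 0.04. There Dnmt1 was not called and Uhrf1 was called higher. Beside these, the 4 trophoblast markers summed to 41.95 to 42.72 CPM in DKO_Dppa2_KO, 24.83 to 24.95 CPM in CtbpDKO and 10.87 to 11.09 CPM in Dppa2KO. The 5 primitive endoderm markers summed there to 9.195 to 10.57, 36.14 to 38.45 and 16.76 to 20.34 CPM. The part of these genes in the lower Dnmt1 level was not tested. CtbpDKO against WT, at a background of 26.1%, had 5 S-phase genes higher and 0 lower, at a median of 0.05 against 0.01. The replication licensing factor Cdt1 led them (0.60, SE 0.11, adjusted p = 0.000884).

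Partners of maintenance methylation moved in both directions when Ctbp was lost. Of 12, 3 rose and 2 fell in CtbpDKO against WT (median 0.10 against 0.01 over all genes), at a background of 26.1%. Pclaf, a PCNA-binding protein, fell by 2.27 (SE 0.13, adjusted p = 5.32e-08) and Cdca7, which works with the remodeller Hells, by 0.47 (SE 0.09, adjusted p = 0.00136), while the histone methyltransferase gene Ehmt2 rose by 0.47 (SE 0.09, adjusted p = 0.00156). In DKO_Dppa2_KO against Dppa2KO, 2 of 12 rose and 8 fell (median -0.36 against 0.01), at a background of 30.4%. Hells, the remodeller, was lower by -0.60 (SE 0.12, adjusted p = 0.00145). Dppa3, whose protein displaces Uhrf1 from chromatin, was higher by 2.65 (SE 0.46, adjusted p = 0.000666).

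Cul2, the scaffold of the ligase, at 24.4 to 38.5 CPM over the table, was called in none of the 7 comparisons of 2 groups, with log2 fold changes from -0.39 to 0.19. In DKO_Dppa2_KO against Dppa2KO it was at -0.39 (SE 0.15, adjusted p = 0.0660), and without DKO_Dppa2_KO replicate 1 at -0.61 (adjusted p = 0.0194). Without a filter on low counts the adjusted p was 0.0151.

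Rbx1, the RING subunit, was at 62.4 and 69.3 CPM in WT and 52.9 and 49.2 CPM in CtbpDKO, and at 70.6 and 60.5 CPM in DuxKO and 50.2 and 53.1 CPM in Ctbp_DuxTKO. CtbpDKO lay below WT, and Ctbp_DuxTKO lay below DuxKO. The log2 fold changes were -0.37 (SE 0.10, adjusted p = 0.0161) and -0.34 (SE 0.10, adjusted p = 0.0155). The first call was lost without WT replicate 2 (-0.31, adjusted p = 0.121), without CtbpDKO replicate 2 (-0.31, adjusted p = 0.112) and with unscaled totals (-0.34, adjusted p = 0.0980). The second was lost without DuxKO replicate 1 (-0.23, adjusted p = 0.180), without Ctbp_DuxTKO replicate 1 (-0.31, adjusted p = 0.0898) and with unscaled totals (-0.31, adjusted p = 0.101). In cells without Dppa2, Ctbp loss gave no called difference in Rbx1. Dppa2KO held 73.4 and 66.8 CPM and DKO_Dppa2_KO 61.5 and 64.5 CPM (log2 fold change -0.15, SE 0.10, adjusted p = 0.282). A processed copy, Rbx1-ps, held 5 to 37 counts per library where Rbx1 held 691 to 3956. How reads matching both copies were counted is not given in the sources used here, so Rbx1 carries that uncertainty.

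Usp7, the deubiquitinase, was at 271 and 289 CPM in Dppa2KO and 223 and 211 CPM in DKO_Dppa2_KO. The difference was -0.37 (SE 0.08, adjusted p = 0.00410), and it was called under all 10 alternatives. In the other 6 comparisons Usp7 lay between -0.24 and 0.17 and was not called.

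Of 10 genes for the elongin adaptors, the Rbx1 paralog Rnf7 and general factors of cullin neddylation, 3 rose and 1 fell in CtbpDKO against WT (median 0.06 against 0.01 over all genes). Eloc, the elongin adaptor that links substrate receptors to Cul2, was higher by 0.56 (SE 0.16, adjusted p = 0.0180), and Dcun1d1, a neddylation cofactor, was lower by -0.70 (SE 0.15, adjusted p = 0.00331). Of 12 substrate receptors, 2 rose and 3 fell, where for both lists the background was 26.1% of genes called. Pramel7 itself was among those higher, from 0 and 2 counts in WT to 67 and 79, and Klhdc2 fell by 0.87 (SE 0.12, adjusted p = 9.38e-05). In DuxKO against WT, Klhdc2 rose by 0.69 (SE 0.11, adjusted p = 0.00109) and L3mbtl3, an adaptor that takes methylated Dnmt1 to a Cul4 ligase, rose by 1.22 (SE 0.16, adjusted p = 0.000163). L3mbtl3 belongs to a list of 12 other regulators of these proteins. Of these, 2 rose and 4 fell in CtbpDKO (median -0.02), at a background of 26.1%. In DuxKO, at a background of 17.5%, 3 rose and 1 fell (median 0.23 against -0.01 over all genes).

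**Figure D3:**
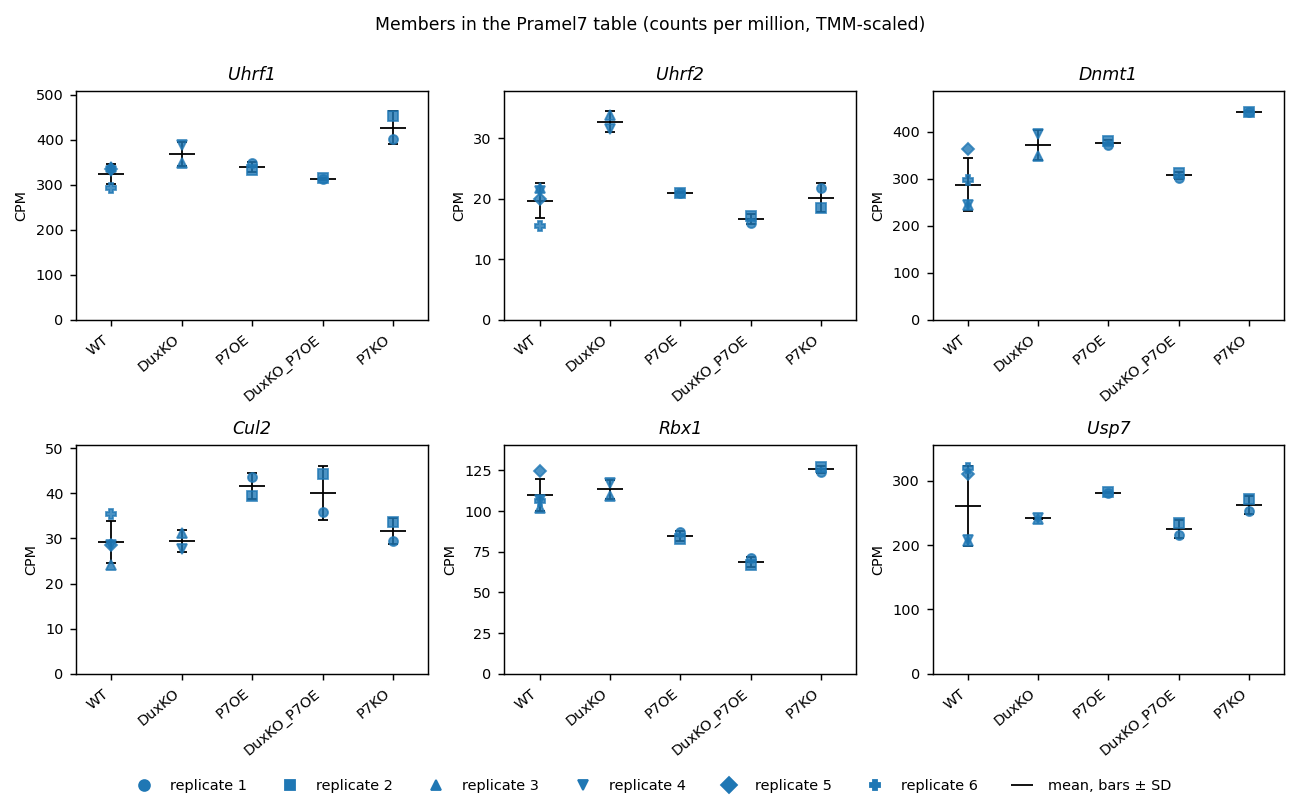
CPM of the 6 members in each library of the Pramel7 table (points, by replicate number), with the group mean and SD (n = 4 for WT, 2 for the others); each axis starts at 0. Uhrf1 in P7OE, at 347 and 332 CPM, lies within or just above the WT range of 292 to 339 CPM, and Uhrf2 is high in DuxKO without Pramel7 overexpression.

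With Pramel7, the receptor for Uhrf1, overexpressed, Uhrf1 RNA overlapped WT. Uhrf1 was at 339, 330, 334 and 292 CPM in WT 3 to 6 and at 347 and 332 CPM in P7OE, with a log2 fold change of 0.07 (SE 0.12, adjusted p = 0.727). In P7OE against WT 2 members were called, Cul2 and Rbx1, at a background of 19.9% of 20161 genes. With Dux absent, Uhrf1 was at 349 and 388 CPM in DuxKO and 312 and 315 CPM in DuxKO_P7OE, which did not overlap, a log2 fold change of -0.23 (SE 0.14, adjusted p = 0.243).

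P7KO held more Uhrf1, at 402 and 453 CPM, above all 4 WT libraries. Against WT the difference was 0.40 on the log2 scale (SE 0.12, adjusted p = 0.0482), close to the threshold. Leaving out any 1 of the 6 libraries ended the call: without WT 3 the adjusted p was 0.0673, without WT 4 0.109, without WT 5 0.0643, without WT 6 0.0702, without P7KO replicate 1 0.176 and without P7KO replicate 2 0.342, at log2 fold changes of 0.31 to 0.46. It was called with either WT pair alone, at 0.33 and 0.44. Dnmt1 was the other of 2 members called in P7KO, at a background of 9.48%.

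Uhrf2 repeated in this table its rise without Dux. It was at 21.8, 21.3, 19.9 and 15.5 CPM in WT and 33.9 and 31.5 CPM in DuxKO, higher by 0.73 (SE 0.14, adjusted p = 0.00389). No library is shared with the DuxKO comparison of the genotype table. The value was 0.56 (adjusted p = 0.00400) with WT 3 and 4 alone and 0.86 (adjusted p = 0.00145) with WT 5 and 6 alone, and without DuxKO replicate 3 it was 0.67 with an adjusted p of 0.0708. It was the 1 member called there, at a background of 16.7%.

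With Pramel7 overexpressed, Uhrf2 did not show the DuxKO level. DuxKO_P7OE held 16.1 and 17.2 CPM and P7OE 20.9 and 21.0 CPM. DuxKO_P7OE lay below DuxKO by -0.98 (SE 0.18, adjusted p = 0.00201), a call kept in all 9 alternatives, at -1.04 to -0.87. Rbx1 was the other of 2 members called in that comparison, at a background of 21.4%.

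The interaction of Pramel7 overexpression and Dux loss for Uhrf2 was -1.07 (SE 0.23, adjusted p = 0.0137). It was called with WT 3 and 4 alone (-0.88) and with WT 5 and 6 alone (-1.17). The call was lost without DuxKO replicate 3 (-1.02, adjusted p = 0.0694), P7OE replicate 1 (-1.08, adjusted p = 0.0553), P7OE replicate 2 (-1.08, adjusted p = 0.0591) or DuxKO_P7OE replicate 1 (-1.02, adjusted p = 0.0709), and with unscaled totals (-0.97, adjusted p = 0.0667). Uhrf2 was the 1 member called for it, at a background of 7.5%. Raw counts of Uhrf2 in this table were 175 to 881. Between DuxKO_P7OE and P7OE 0.0298% of genes and 0 members were called by edgeR, 1 member (Rbx1) had an unadjusted p under 0.05 and DESeq2 called 0, and Uhrf2 differed there by -0.33 (SE 0.18, adjusted p = 0.500).

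Dnmt1 depended on which WT libraries were used. It was at 244, 245, 363 and 297 CPM in WT 3 to 6, at 373 and 381 CPM in P7OE and at 443 and 443 CPM in P7KO, so both groups lay above all 4 WT libraries. P7OE against WT gave 0.39 (SE 0.16, adjusted p = 0.0959), with WT 3 and 4 alone 0.59 (adjusted p = 0.000689), and without WT 5 0.50 (adjusted p = 0.0177). P7KO against WT gave 0.63 (SE 0.15, adjusted p = 0.0225), with WT 5 and 6 alone 0.42 (adjusted p = 0.0640). The P7KO call was also lost without WT 4 (0.53, adjusted p = 0.0619), P7KO replicate 1 (0.61, adjusted p = 0.170) or P7KO replicate 2 (0.63, adjusted p = 0.131), and in a fit of those groups alone (0.61, adjusted p = 0.0956).

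In DuxKO, at 349 and 395 CPM, Dnmt1 overlapped WT. The difference was 0.37 (SE 0.16, adjusted p = 0.126), and with WT 3 and 4 alone 0.56 (adjusted p = 0.00125). DuxKO_P7OE held 302 and 313 CPM, -0.28 from DuxKO (SE 0.18, adjusted p = 0.306). The interaction of Pramel7 overexpression and Dux loss for Dnmt1 was -0.67 (SE 0.24, adjusted p = 0.117), and -0.85 (adjusted p = 0.00133) with WT 3 and 4 alone.

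Cul2, whose product carries the Pramel7 ligase, was at 24.1, 28.6, 28.6 and 35.3 CPM in WT and 43.7 and 39.5 CPM in P7OE. P7OE lay above all WT libraries, by 0.51 (SE 0.15, adjusted p = 0.0302). Each of these steps ended the call: WT 5 and 6 alone (0.36, adjusted p = 0.0943), without WT 3 (0.41, adjusted p = 0.0657), without WT 5 (0.48, adjusted p = 0.0588), without P7OE replicate 1 (0.43, adjusted p = 0.229), without P7OE replicate 2 (0.60, adjusted p = 0.0958), a fit of those groups alone (0.52, adjusted p = 0.0692) and unscaled totals (0.52, adjusted p = 0.0821). In cells without Dux, Cul2 was at 31.2 and 27.8 CPM in DuxKO and 35.8 and 44.3 CPM in DuxKO_P7OE (0.44, SE 0.18, adjusted p = 0.0977). A fit of these groups alone gave 0.48 with an adjusted p of 0.0307.

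Rbx1, its partner in the ligase, went down in both backgrounds. It was at 102, 107, 124 and 106 CPM in WT and 87.1 and 82.6 CPM in P7OE, and at 109 and 118 CPM in DuxKO and 71.0 and 66.6 CPM in DuxKO_P7OE. Neither pair of groups overlapped, and the 2 comparisons share no library. P7OE against WT gave -0.37 (SE 0.12, adjusted p = 0.0375) and DuxKO_P7OE against DuxKO -0.72 (SE 0.13, adjusted p = 0.00231).

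The larger of these changes was called in 8 of 9 alternatives, all but unscaled totals (-0.62, adjusted p = 0.0563). The smaller was lost without WT 4 (-0.37, adjusted p = 0.0602), P7OE replicate 1 (-0.41, adjusted p = 0.150) or P7OE replicate 2 (-0.32, adjusted p = 0.277), with no filter (-0.38, adjusted p = 0.117), in a fit of those groups alone (-0.37, adjusted p = 0.115) and with unscaled totals (-0.37, adjusted p = 0.199). It was called with either WT pair alone. The 2 Rbx1 effects differed by -0.35 (SE 0.17, adjusted p = 0.259). Pramel7 RNA was higher in DuxKO_P7OE than in P7OE, as given above, and its part in the Rbx1 levels was not tested. In the same groups the summed primitive endoderm markers were 74.2 to 77.4 CPM in P7OE and 67.7 to 72.4 CPM in DuxKO_P7OE, against at most 9.005 CPM in WT and DuxKO. Their part in the Rbx1 level was not tested.

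Usp7 was called by edgeR in 0 of the 5 comparisons of this table with all WT libraries. It was at 281 and 282 CPM in P7OE, between the WT pairs, so its difference was 0.40 (adjusted p = 0.00649) with WT 3 and 4 alone and -0.18 (adjusted p = 0.272) with WT 5 and 6 alone. P7KO, at 253 and 272 CPM, also lay between the pairs and gave 0.31 (adjusted p = 0.0303) and -0.27 (adjusted p = 0.158). DuxKO, at 241 and 242 CPM, gave 0.18 (adjusted p = 0.215) and -0.40 (adjusted p = 0.0224). The sign of each of these 3 Usp7 differences thus turned with the WT pair. The interaction of Pramel7 overexpression and Dux loss for Usp7 was -0.21 (SE 0.27, adjusted p = 0.711) with all WT libraries, -0.49 (adjusted p = 0.0267) with WT 3 and 4 and 0.10 (adjusted p = 0.725) with WT 5 and 6.

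A list of 10 genes held the elongin adaptors, the Rbx1 paralog Rnf7 and general factors of cullin neddylation. At a background of 19.9% of genes, 0 of them rose and 4 fell in P7OE against WT. Their median was -0.45 against -0.01 over all genes. With WT 3 and 4 alone 1 rose and 7 fell, and with WT 5 and 6 alone 1 rose and 4 fell. Those lower were Rnf7, the paralog of Rbx1 (-0.95, SE 0.12, adjusted p = 0.000230), Dcun1d1 (-0.60, SE 0.15, adjusted p = 0.0133), Cops5, the catalytic subunit of the signalosome that removes Nedd8 (-0.59, SE 0.13, adjusted p = 0.00761), and Nedd8 itself (-0.46, SE 0.14, adjusted p = 0.0324).

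In DuxKO_P7OE against DuxKO, at a background of 21.4% of genes, 0 rose and 3 fell, with a median of -0.45 against -0.03. These were Nae1, a subunit of the Nedd8-activating enzyme (-1.3, SE 0.17, adjusted p = 0.000258), Dcun1d1 (-0.61, SE 0.17, adjusted p = 0.0249) and Cops5 (-0.59, SE 0.15, adjusted p = 0.0152). With unscaled totals 1 of the 10 fell there and 3 in P7OE against WT. Of the other Cul2 receptors, Fem1c fell in both comparisons, by 0.57 (SE 0.12, adjusted p = 0.00494) and by 0.71 (SE 0.14, adjusted p = 0.00291).

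Of the maintenance partners, in P7OE 1 of 12 was higher and 5 were lower (median -0.37 against -0.01 over all genes). In DuxKO_P7OE against DuxKO 0 were higher and 4 lower (median -0.27 against -0.03). The backgrounds of these comparisons were 19.9% and 21.4% of genes. Dppa3 was lower by -1.91 (SE 0.38, adjusted p = 0.00365) and by -1.51 (SE 0.46, adjusted p = 0.0318) in them. It was higher by 1.40 (SE 0.30, adjusted p = 0.00984) in P7KO against WT. With unscaled totals 1 rose and 2 fell in P7OE. Of the S-phase genes in P7OE, 2 of 16 were higher and 0 lower, at a median of -0.05, while with WT 5 and 6 alone 1 was higher and 5 lower.

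**Figure D4:**
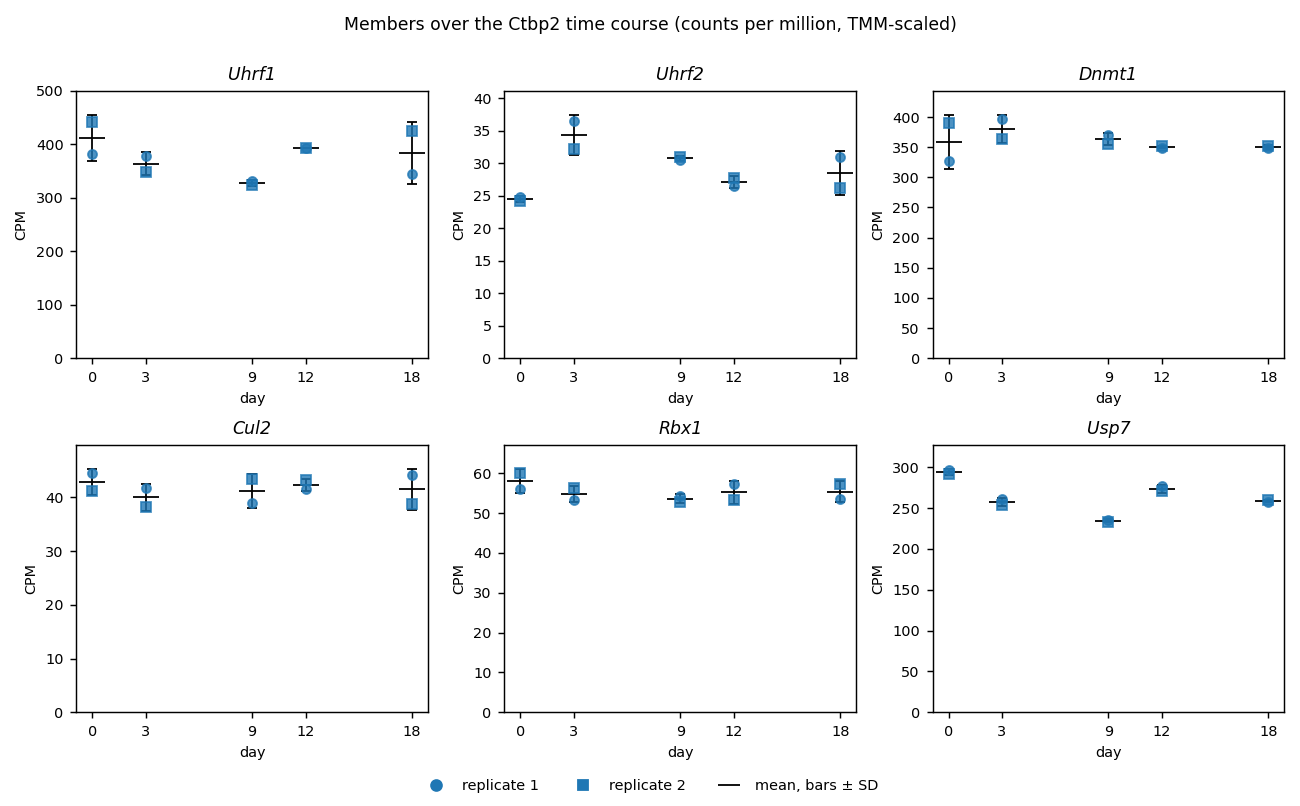
CPM of the 6 members against day of the time course (points, by replicate number), with the mean and SD of the 2 libraries a day; each axis starts at 0. Uhrf1 is lowest at day 9, at 331 and 324 CPM, and Uhrf2 is highest at day 3, at 36.5 and 32.2 CPM.

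Over the time course Uhrf2 was the only member called by edgeR. Of 6 members, 1 was called at day 3 against day 0, Uhrf2, at a background of 4.99% of 20612 genes. In the other 5 comparisons 0 were called by edgeR, at backgrounds of 1.12% for day 9 against day 3, 3.84% for day 12 against day 9, 0.82% for day 18 against day 12, 7.34% for day 9 against day 0 and 0.514% for day 18 against day 0. At an unadjusted p under 0.05 these held 0, 1, 0, 3 and 0 members, and DESeq2 called 1, Usp7 at day 9 against day 0. Ctbp2 RNA was high at days 3 and 9, as given above.

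Uhrf1 was at 382 and 442 CPM at day 0, 379 and 349 at day 3, 331 and 324 at day 9, 393 and 393 at day 12 and 344 and 425 at day 18. Day 9 lay below every other day. The difference of day 9 from day 0 was -0.33 (SE 0.12, adjusted p = 0.140), and that of day 12 from day 9 was 0.26 (SE 0.12, adjusted p = 0.310). Neighbouring days in the order of means overlapped except days 3 and 9.

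Uhrf2 was at 24.8 and 24.2 CPM at day 0, 36.5 and 32.2 at day 3, 30.4 and 31.0 at day 9, 26.5 and 27.7 at day 12 and 31.0 and 26.1 at day 18. Day 3 was above every other day, and higher than day 0 by 0.49 (SE 0.12, adjusted p = 0.0311). The call was lost without day 0 replicate 1 (adjusted p = 0.124), day 0 replicate 2 (adjusted p = 0.134), day 3 replicate 1 (adjusted p = 0.243) or day 3 replicate 2 (adjusted p = 0.0624), at 0.39 to 0.58, in a fit of both days alone (adjusted p = 0.0631) and with unscaled totals (0.43, adjusted p = 0.0706).

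Usp7 was at 297 and 291 CPM at day 0 and 236 and 233 CPM at day 9, which missed the threshold in edgeR (-0.33, SE 0.10, adjusted p = 0.0643), while DESeq2 gave an adjusted p of 0.00618. Dnmt1 ranged from 326 to 396 CPM, Cul2 from 38.2 to 44.5 CPM and Rbx1 from 52.8 to 60.2 CPM over the 10 libraries, and all days of Dnmt1 and Cul2 overlapped day 0.

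**Figure D5:**
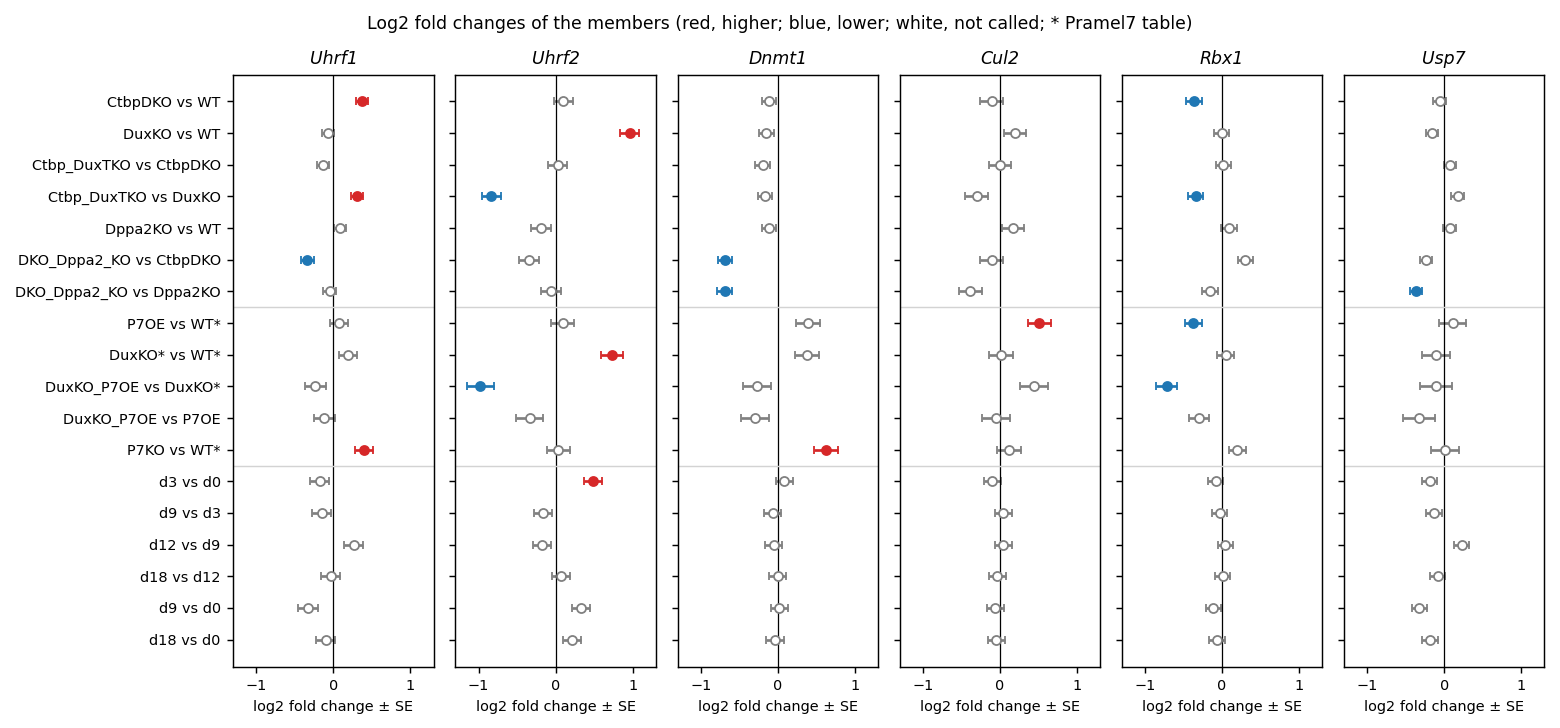
Log2 fold changes with SE of the 6 members in the 18 comparisons of 2 groups (filled red, called higher; filled blue, called lower; white, not called; grey lines part the 3 tables; asterisks mark WT and DuxKO of the Pramel7 table). Uhrf2 has the widest range, from -0.98 to 0.96, and Rbx1 is called lower 4 times and higher 0 times.

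Over the 18 comparisons of 2 groups, some of which share libraries, Uhrf1 was called higher in 3 and lower in 1, Uhrf2 higher in 3 and lower in 2, Dnmt1 higher in 1 and lower in 2, Cul2 higher in 1, Rbx1 lower in 4 and Usp7 lower in 1. Log2 fold changes ran from -0.34 to 0.40 for Uhrf1, from -0.98 to 0.96 for Uhrf2 and from -0.69 to 0.63 for Dnmt1.

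Likeness of pattern was measured as the mean over the 3 tables of Pearson's r of log2 CPM across 12, 12 and 10 libraries, for 14271 genes. E2f2 (mean r 0.787), Ubtf (0.782), Lmnb2 (0.782), Itpk1 (0.760) and Rpa2 (0.744) were most like Uhrf1, and Espl1 (0.776), Mcm3 (0.755), Snrnp200 (0.749), Irf2bp2 (0.738) and Tyk2 (0.737) most like Dnmt1. Uhrf1 and Dnmt1 had a mean r of 0.315 with each other, at 0.118 over the genotypes, 0.695 over the Pramel7 series and 0.133 over the days. These correlations share libraries, scaling and group differences and are descriptions.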

How the data were processed

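RNA-seq libraries of E14tg2a cells were read from 3 deposited tables of raw counts per gene symbol, which the authors made with Trim Galore, HISAT2 and featureCounts on mm10, per the submitters' processing notes; versions and the strand setting of counting are not given in the sources used here. A further table repeating 8 of these libraries was not used, and 0 columns were left unmatched.

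Genes were kept by filterByExpr and tested with edgeR 4.0.16 (R 4.3.3): quasi-likelihood F test, TMM scaling, 1 fit per table with group as the only term, and Benjamini-Hochberg adjustment over all genes tested. A gene was called under an adjusted p of 0.05. Standard errors were taken from the F statistics, and CPM are counts over the scaled library size. Groups were compared only within a table. DESeq2 1.42.0, other scalings, filters, left-out libraries, WT pairs and a replicate block were alternatives. The test was tried on simulated data. Each of the 21 pairs of libraries of a group differed beyond counting noise (chi-square per degree of freedom 14.3 to 166, genes with at least 20 counts). So no pair looked like a single library sequenced again. This cannot tell libraries of the same culture from those of separate cultures. Counts alone set the precision given by depth, without molecular identifiers.

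Replicate numbers did not pair the libraries. The 6 members, the pathway and marker lists and the rule for named genes (the members, targeted genes, up to 3 called genes of largest change per list and the 5 genes most like Uhrf1 and Dnmt1) were chosen with earlier results of these data known. Nedd8 and the nearest genes were looked at after the values were seen. Gene positions and promoters came from RefSeq tables of GRCm38.p6.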

Additional observations from a re-analysis of the deposited data

Results flagged for a closer look

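In 4 of 18 tests of whether an effect on a member differs between backgrounds, edgeR's interaction test passed an adjusted p of 0.05. The Ctbp effect on Uhrf2 differed with Dux loss by -0.93, the Ctbp effect on Uhrf1 differed with Dppa2 loss by -0.42, and that on Dnmt1 by -0.57. The Pramel7 effect on Uhrf2 differed with Dux loss by -1.07, and Pramel7 RNA was higher in DuxKO_P7OE than in P7OE. The 2 Uhrf2 results come from tables that share no library. A test of the gap between an outermost value and the next (Dixon's Q) flagged no WT library of the Pramel7 table for any member. It cannot flag a library where the 4 values split 2 and 2, as those of Usp7 did. Uhrf1 in WT 6 was at 292 CPM, against 330 to 339 CPM in the other 3.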

How the results depend on the processing

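Of 1404 alternative values of the members' fold changes, 1317 stayed on their side of the threshold, 70 lost the call and 17 gained it. In 93 of the 1317, spread over 40 results, the sign changed while neither value was called, and in 0 did a called value change sign; the cause of each change was not tested, except that fewer libraries or genes enter some fits. For Uhrf1, the log2 fold change of Ctbp_DuxTKO over DuxKO was 0.34 with unscaled library totals. The Ctbp and Dppa2 interaction was -0.54 with unscaled totals and -0.40 with only the groups compared. P7KO against WT was 0.54 with unscaled totals, 0.38 with RLE factors, 0.37 without a filter and 0.38 with only the groups compared. All of these Uhrf1 values were past the threshold no longer. Unscaled totals gave 2441 genes called for DuxKO against WT (3707 as reported), 977 for Ctbp_DuxTKO against CtbpDKO (1727), 2189 for Dppa2KO (3467), 2624 for the Ctbp and Dux interaction (4124), 957 for the Pramel7 and Dux interaction (1512) and 102 for day 18 against day 12 (169). Only the groups compared gave 2104 for DuxKO against WT of the Pramel7 table (3361), 63 for DuxKO_P7OE against P7OE (6), 1073 for P7KO (1911), 60 for day 18 against day 12 and 40 for day 18 against day 0 (106). DESeq2 gave 153 for DuxKO_P7OE against P7OE, 439 for day 9 against day 3 (230), 319 for day 18 against day 12 and 263 for day 18 against day 0. No filter gave 350 for DuxKO_P7OE against P7OE, 1634 for day 3 against day 0 (1029), 789 for day 9 against day 3, 1361 for day 12 against day 9 (791), 652 for day 18 against day 12 and 566 for day 18 against day 0. WT 3 and 4 alone gave 6124 for P7OE (4003), 4693 for P7KO and 3184 for the Pramel7 and Dux interaction, and WT 5 and 6 alone gave 2763 for the last.

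Same-numbered libraries did not deviate together, so a replicate block was an alternative only. With the replicate block, the Uhrf1 interaction of Ctbp and Dppa2 was -0.42 (adjusted p = 0.0661), Dnmt1 in DuxKO of the Pramel7 table was 0.60 (adjusted p = 0.00158), and 333 genes were called for DuxKO_P7OE against P7OE and 112 for day 18 against day 12.

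Leaving out 1 library at a time, with a lone library assumed to vary like the other groups, Uhrf1 ranged from 0.32 to 0.41 in CtbpDKO against WT, 0.22 to 0.35 in Ctbp_DuxTKO against DuxKO, -0.37 to -0.30 in DKO_Dppa2_KO against CtbpDKO, -0.47 to -0.37 for the Ctbp and Dppa2 interaction and 0.31 to 0.46 in P7KO. Genes called ranged from 3543 to 4048 for CtbpDKO against WT, 1825 to 2046 for DuxKO, 558 to 1250 for Ctbp_DuxTKO against CtbpDKO, 1616 to 2379 for Dppa2KO, 1272 to 2058 for DKO_Dppa2_KO against CtbpDKO, 2638 to 3710 for the Ctbp and Dux interaction and 773 to 1310 for the Ctbp and Dppa2 interaction. In the Pramel7 table they ranged from 1477 to 4818 for P7OE, 1208 to 3533 for DuxKO, 1925 to 2675 for DuxKO_P7OE against DuxKO, 2 to 11 against P7OE, 518 to 2426 for P7KO and 651 to 1939 for the interaction. Over the days they ranged from 340 to 607 (day 3 against day 0), 51 to 101 (day 9 against day 3), 210 to 303 (day 12 against day 9), 38 to 213 (day 18 against day 12), 652 to 969 (day 9 against day 0) and 27 to 233 (day 18 against day 0).

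Unscaled totals shifted the median log2 fold change of all genes to -0.18 in DKO_Dppa2_KO against CtbpDKO, -0.13 in the Ctbp and Dppa2 interaction, 0.16 in P7KO and 0.15 at day 9 against day 3. With 2 libraries in most groups, small differences of the members could not be resolved at this replication.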

Other observations

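The counts of Dnmt1 and Uhrf1 within a library can be set against each other without any scaling between libraries. This ratio was looked at after the values were seen, so it is a description without a test. For every 100 counts of Uhrf1, Dnmt1 had 102.3 and 101.9 in WT, 92.97 and 100.2 in DuxKO and 88.98 and 89.32 in Dppa2KO. In the groups without Ctbp it had 72.45 and 73.15 in CtbpDKO, 66.79 and 72.37 in Ctbp_DuxTKO and 58.34 and 56.12 in DKO_Dppa2_KO, each below the 3 groups with Ctbp. In the time course the values were 85.51 and 88.26 at day 0, 104.7 and 104.4 at day 3, 112 and 109.9 at day 9, 88.81 and 89.37 at day 12 and 101.3 and 82.8 at day 18. In the Pramel7 table, WT 3 and 4, which carry Ctbp, stood at 71.94 and 74.17, while WT 5 and 6 stood at 108.5 and 101.9.

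Uhrf2 had 4.461 and 4.238 counts for every 100 of Uhrf1 in WT and 8.586 and 9.16 in DuxKO of the genotype table. In the Pramel7 table it had 5.314 to 6.451 in WT, 9.71 and 8.112 in DuxKO and 5.146 and 5.452 in DuxKO_P7OE.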
